A study of Mus musculus with 48 samples.

Results

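The cell cycle and DNA replication genes described here were 41 genes chosen by symbol. The choice was made with earlier results of these data known. All 41 were present among the 22173 genes of the count table of gonadal somatic cells (GSCs), among the 13682 genes of the FPKM table of differentiating embryonic stem cells (ESCs), and among the 32285 genes of the 10x table. They were grouped into 7 roles: 8 G1 cyclins and their regulators, 10 genes of origin licensing and replication, 3 of nucleotide supply, 7 mitotic cyclins and kinases, 4 of the spindle checkpoint and the anaphase-promoting complex (APC/C), 6 of the spindle and kinetochore, and 3 of the chromatin of proliferating cells. A further 128 genes of the cell cycle were counted beside them.

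The study characterised mouse GSCs across development and used small molecules to differentiate ESCs into GSC-like cells (GSCLCs). The GSCs came from C57BL/6 mice and were the cells left after SSEA1-positive germ cells had been removed with magnetic beads, from female gonads at E12.5, E13.5 and E16.5 and from the ovary at 6 weeks after birth (P6w), with 2 libraries per stage. The induced cells were female C57BL/6 ESCs that had been kept on inactivated fibroblasts, separated from them by adherence and seeded on fibronectin. They were left untreated (Con) or given vitamin C (Vc), AM580, an agonist of retinoic acid receptor alpha, or both (V580), with 2 libraries of each at 24 h and at 48 h. V580 was also followed to day 4, 6, 8 and 10 (V580_D4 to V580_D10), with 3 libraries per day, beside 3 libraries of cells separated from E12.5 female gonads (E12.5_GC), and 1 sample of V580_D6 was measured as single cells by 10x. All of these cells had the C57BL/6 background. The paper used ESCs that expressed green fluorescent protein under β-actin and ESCs that did not. Which of them gave these libraries was not named, and no other genetic change was named. Nothing in the labels tells whether libraries of a group came from separate animals or cultures, so p-values measured the spread between these libraries, which may be technical.

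Cyclins are the regulatory subunits that switch on cyclin-dependent kinases (CDKs). D-type cyclins (Ccnd1, Ccnd2, Ccnd3) and E-type cyclins (Ccne1, Ccne2) drive a cell through G1, and the CDK inhibitors p21 (Cdkn1a) and p27 (Cdkn1b) hold it there. The MCM helicase, loaded on DNA with the help of Cdc6 and Cdt1, opens replication origins, and cyclin B with Cdk1 then drives mitosis until Cdc20 and Ube2c, acting with the APC/C, bring it to an end. In the fetal ovary p27 marks pregranulosa cells that have left the cycle, growing follicles depend on Ccnd2 in their granulosa cells, and mouse ESCs have a short G1 with abundant cyclin E.

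Transcription of many of these genes is tied to short promoter elements, and 4 promoters are printed to show them: one that carries the element of mitotic genes, one that carries it in repeat, one that carries the element of replication genes and one of a CDK inhibitor that carries neither. RefSeq promoters of GRCm38.p6, from 250 bases before to 50 bases after the start of a gene, were at hand for 33 of the 41 genes and for 27025 genes in all, and they are written 5′ to 3′ on the strand of the gene. In Cdc20 (chr4:118437294-118437593, minus strand), the activator of the APC/C, and in Mki67 (chr7:135716330-135716629, minus strand), which coats mitotic chromosomes, capitals mark the cell cycle gene homology region (CHR, TTTGAA or TTCGAA) and the CCAAT box on either strand. Mki67 also holds a core of the E2F site (TTGGCGC), the element of replication genes, which is left in lower case.
Cdc20: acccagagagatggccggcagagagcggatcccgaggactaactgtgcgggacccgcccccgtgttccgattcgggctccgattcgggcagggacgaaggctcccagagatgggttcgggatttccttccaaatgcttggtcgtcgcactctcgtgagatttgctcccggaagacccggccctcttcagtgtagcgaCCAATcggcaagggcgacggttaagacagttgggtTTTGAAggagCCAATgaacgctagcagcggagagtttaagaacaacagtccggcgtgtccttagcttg
Mki67: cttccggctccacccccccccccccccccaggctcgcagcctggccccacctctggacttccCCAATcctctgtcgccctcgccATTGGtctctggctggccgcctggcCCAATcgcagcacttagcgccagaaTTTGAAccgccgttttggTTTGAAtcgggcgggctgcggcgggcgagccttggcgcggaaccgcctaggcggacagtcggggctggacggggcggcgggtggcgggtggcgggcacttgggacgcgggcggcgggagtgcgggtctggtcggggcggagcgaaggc
In Mcm5 (chr8:75109259-75109558, plus strand), a subunit of the replicative helicase, capitals mark the core of the E2F site (TTCCCGC or else TTGGCGC or else TTCGCGC or else TTGCCGC) on either strand, with matches that overlap each other. Mcm5 also holds 3 CCAAT boxes, which are left in lower case.
Mcm5: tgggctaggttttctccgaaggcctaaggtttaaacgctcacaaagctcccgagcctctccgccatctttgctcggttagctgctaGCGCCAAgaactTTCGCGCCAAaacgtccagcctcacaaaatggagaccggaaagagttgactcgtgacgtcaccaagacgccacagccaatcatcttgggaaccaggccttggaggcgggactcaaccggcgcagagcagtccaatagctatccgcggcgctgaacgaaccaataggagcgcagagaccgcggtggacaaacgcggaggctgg
In Cdkn1b (chr6:134920151-134920450, plus strand) capitals mark the CCAAT box alone, since neither a CHR nor an E2F core was found there.
Cdkn1b: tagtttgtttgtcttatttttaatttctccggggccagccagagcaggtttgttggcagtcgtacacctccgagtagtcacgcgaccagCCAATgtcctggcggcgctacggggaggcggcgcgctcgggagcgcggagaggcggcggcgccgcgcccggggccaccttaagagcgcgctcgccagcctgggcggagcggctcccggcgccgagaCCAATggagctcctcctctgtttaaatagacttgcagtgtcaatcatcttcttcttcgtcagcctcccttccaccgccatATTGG

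The CHR was found in 15 of the 33 promoters (45.5%), against 19.4% of all promoters of that length. It was present in 4 of 5 mitotic cyclins and kinases, in 4 of 4 checkpoint and APC/C genes, in 3 of 5 spindle and kinetochore genes and in 3 of 3 chromatin genes, but in 1 of 8 replication genes and in none of the 5 G1 genes with a promoter. The E2F core showed the other distribution, with 6 of 8 replication genes, 2 of 3 nucleotide supply genes, 2 of 5 mitotic genes and 1 of 3 chromatin genes (Mki67). It was found in 11 of 33 in all (33.3%, against 9.70% of all promoters). The CCAAT box, the site of NF-Y, was found in 25 of 33 (75.8%, against 37.8%), and 15 (45.5%, against 7.57%) held both a CHR and a CCAAT box. A match of letters describes the sequence and does not show that a factor binds there.

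The GSC libraries held 12694769 to 22259044 counted reads. Some facts of the stage libraries touch the results below: replicates at E16.5 differed by more than the others (chi-square per degree of freedom 37.9, against 6.02 to 6.93), and sequencing lane 5 held both libraries of E12.5 and of E13.5 and replicate 1 of E16.5 whereas lane 1 held E16.5 replicate 2 and P6w. The libraries also differed in other cell types. In CPM, counts scaled to a common library size, the sum over 10 erythroid genes lay between 14344 and 15739 at E12.5, between 32490 and 35135 at E13.5, between 10674 and 15205 at E16.5 and between 270 and 300 at P6w. Germ cell markers (8 genes) summed to 19.0 to 21.2 CPM at E12.5, 58.6 to 59.4 CPM at E13.5, 202 to 295 CPM at E16.5 and 26.0 to 27.5 CPM at P6w, although germ cells had been removed. Gonadal somatic markers went from 2347 to 2369 CPM at E12.5 to 1100 to 1198 CPM at P6w, interstitial markers from 737 to 797 CPM at E12.5 to 2542 to 2821 CPM at E16.5, and liver and yolk sac markers from 3.21 to 4.63 CPM at E12.5 to 176 to 181 CPM at E13.5. The E12.5 libraries held Y-linked transcripts at 8.40 to 9.50 CPM in sum, against at most 0.254 at the other stages, although they are labelled female. Adult granulosa markers reached 43629 to 43723 CPM at P6w, against 191 to 403 in the fetal libraries. Their part in the results was not tested, and in bulk RNA fewer cycling cells and less RNA per cycling cell cannot be told apart.

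The first comparison asked how the cycle genes of female GSCs changed between E12.5, before germ cells enter meiosis, and E13.5, when they do. Genes of the spindle, the kinetochore and mitotic chromatin fell, and CDK inhibitors and Ccnd3 rose, while most mitotic cyclins and kinases and most replication genes did not pass the test. Of the 41 genes, 6 rose and 15 fell, against 45.9% of all 16398 genes called (23.8% higher and 22.1% lower). The median change was -0.19 on the log2 scale, against 0.03 over all genes.

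Cenpe, a kinesin that carries chromosomes along the spindle, stood at 114 and 104 CPM at E12.5 and at 31.8 and 30.7 CPM at E13.5. Cenpf, a large kinetochore protein, stood at 149 and 142 CPM, and then at 49.1 and 41.1 CPM. For both genes the E13.5 libraries lay far below the E12.5 libraries, without overlap. Cenpe fell by 1.80 ± 0.14 (log2 ± SE, adjusted p = 1.06e-06, edgeR) and Cenpf fell by 1.69 ± 0.15 (adjusted p = 2.07e-06, edgeR), and 5 of the 6 spindle and kinetochore genes fell with a median change of -0.87. Mki67 fell by 1.44 and Top2a, which untangles DNA, fell by 1.00, whereas Hmgb2, which bends DNA, had a log2 change of 0.05. The exception among spindle genes was Birc5, the survivin subunit of the chromosomal passenger complex, with 83.9 and 83.1 CPM at E12.5 and 117 and 126 CPM at E13.5, a rise of 0.54.

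Gene length moved with these changes. Across 16169 genes the log2 change at E13.5 correlated with summed exon length at a Spearman rho of -0.494, and across the 41 genes at -0.485, a description across genes of the same libraries. Cenpf (15433 bases), Mki67 (10061), Top2a (9013) and Cenpe (8620) are among the longest of the 41 genes, whose median length was 4217 bases. With length as a term in the fit 6 genes rose and 19 fell, and Cenpe (-1.32), Cenpf (-0.88), Mki67 (-0.88) and Top2a (-0.49) stayed called, while the rises of Ube2c (0.13) and Gins2 (0.31) were no longer called.

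The CDK inhibitors moved the other way. Cdkn1b stood at 170 and 185 CPM at E12.5 and at 301 and 322 CPM at E13.5, and Cdkn1a at 112 and 128 CPM and then at 208 and 230 CPM. All E13.5 libraries lay above all E12.5 libraries for both genes. Cdkn1b rose by 0.81 ± 0.12 (adjusted p = 7.75e-05, edgeR) and Cdkn1a by 0.87 ± 0.16 (adjusted p = 6.01e-04, edgeR). The D-type cyclins diverged, since Ccnd3 rose from 245 and 263 CPM to 497 and 465 CPM (0.92 ± 0.16) and Ccnd1 fell from 138 and 147 CPM to 80.8 and 88.2 CPM (-0.75 ± 0.12). Ccnd2 had a change of -0.17 ± 0.11 (adjusted p = 0.235, edgeR), and with the length term a change of 0.35 (adjusted p = 0.0402, edgeR). Among the replication genes only Gins2, a subunit of the GINS complex of the helicase, rose (0.34), and Mcm4 (-0.84) and Mcm2 (-0.42) fell. Scaled to library totals in place of TMM, which moved the median of all genes by -0.32, 3 genes rose (Cdkn1b, Cdkn1a and Ccnd3) and 30 fell.

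**Figure D1:**
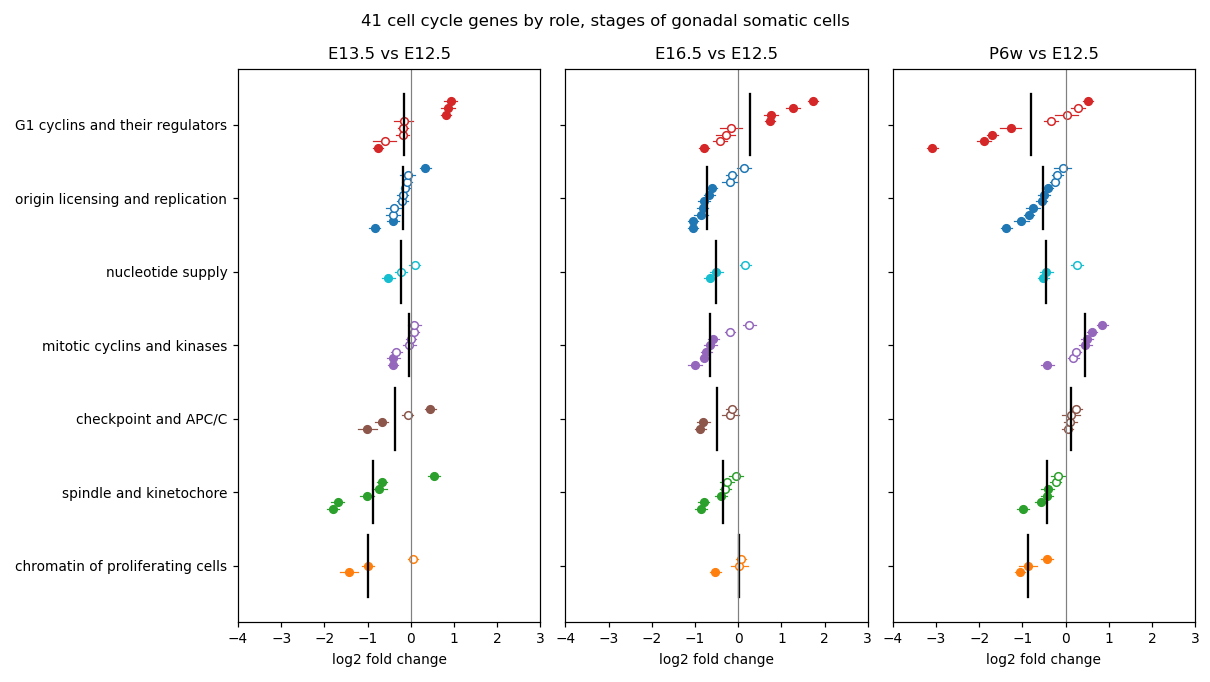
Log2 fold change of each of the 41 genes against E12.5 in GSCs, with 1 panel per stage and 1 row per role. Points are genes, filled where called at an adjusted p below 0.05 (edgeR), horizontal bars are ± SE and black bars the median of a role; most spindle genes lie below 0 at E13.5, most replication and mitotic genes below 0 at E16.5, and most mitotic cyclins and kinases above 0 at P6w.

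At E16.5, when germ cells of the ovary are in meiotic prophase, the replication genes were low and p27 was high. Of the 41 genes, 4 rose and 21 fell against E12.5 (37.6% of all genes called, 20.5% higher and 17.1% lower), and the 4 that rose were all G1 genes: Cdkn1b, Ccnd3, Cdkn1a and Ccnd2. The replication genes fell in 7 of 10 cases (median -0.73) and the mitotic cyclins and kinases in 5 of 7 (median -0.64). The median of the 41 genes was -0.42.

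Mcm3, a helicase subunit, stood at 333 and 330 CPM at E12.5, 311 and 316 CPM at E13.5 and 175 and 145 CPM at E16.5. Mcm7, another subunit, stood at 136 and 143 CPM, at 133 and 124 CPM and at 67.7 and 67.3 CPM. Both were thus close to their E12.5 level at E13.5 and lower, without overlap, at E16.5. Mcm7 fell by 1.05 ± 0.11 (adjusted p = 5.76e-06, edgeR) and Mcm3 fell by 1.05 ± 0.12 (adjusted p = 8.48e-06, edgeR) against E12.5. Pcna, the sliding clamp of the polymerases, had a log2 change of -0.15 and was not called. Plk1, a mitotic kinase, fell by 1.00 and Cdc20 fell by 0.88.

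Cdkn1b reached 539 and 637 CPM at E16.5, and Ccnd3 504 and 722 CPM. Cdkn1b thus had its highest level of the 4 stages there, 3.32-fold that of E12.5 (log2 change 1.73 ± 0.12, adjusted p = 6.61e-08, edgeR). Ccnd3 rose by 1.27 ± 0.16 and Cdkn1a by 0.76 ± 0.16, with Cdkn1a at 161 CPM in one E16.5 library and 246 in the other. Ccnd2 rose from 719 and 721 CPM at E12.5 to 1116 and 1267 CPM (0.73 ± 0.11, adjusted p = 1.65e-04, edgeR), whereas Ccnd1, at 78.8 and 84.8 CPM, fell by 0.80 ± 0.12. Mki67 was spread widely between the E16.5 libraries, at 144 and 80.3 CPM, which lie on both sides of the E12.5 libraries (114 and 107 CPM).

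Between E13.5 and E16.5, 11 of the 41 genes rose and 14 fell (54.1% of all genes called, 28.7% higher and 25.4% lower), and roles parted. Spindle and kinetochore genes rose in 4 of 6 cases with a median of 0.71, led by Cenpf (1.30), and Mki67 rose by 1.46 ± 0.21, so that the long genes that were low at E13.5 were higher again. Replication genes fell in 6 of 10 cases, with Mcm3 at -0.97, and mitotic kinases and cyclins in 4 of 7, with Plk1 at -1.08. The changes of Ccnd1 (-0.05), Ccnd3 (0.35, adjusted p = 0.0693, edgeR) and Cdkn1a (-0.11) were not called, although without E16.5 replicate 1 the change of Ccnd3 was 0.59 and called, and without E16.5 replicate 2 that of Cdkn1a was -0.44 and called. Across the 41 genes the change again ordered with exon length (rho 0.484, against 0.335 over all genes), and scaling to library totals, which moved the median of all genes by 0.27, gave 16 higher and 9 lower.

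**Figure D2:**
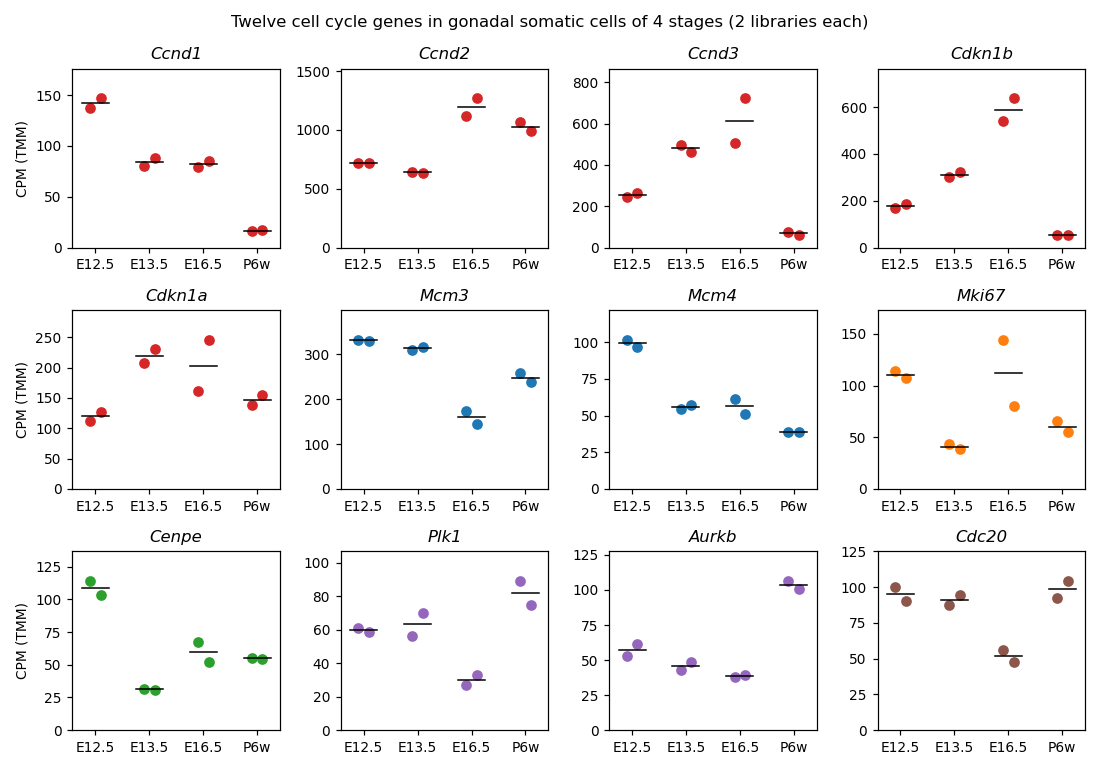
CPM (TMM scaled, y axis from 0) of 12 of the 41 genes in GSCs by stage (x axis), with points for the 2 libraries of a stage and a line for their mean. Cdkn1b and Ccnd3 rise to E16.5 and are lowest at P6w, Mki67 and Cenpe are lowest at E13.5, and Plk1 and Aurkb are highest at P6w.

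Adult ovarian somatic cells had 4 mitotic cyclins and kinases above the E12.5 level, of which 2 were also called with a lane term (below), and little of 3 G1 genes. At P6w 5 of the 41 genes were higher and 21 lower than at E12.5 (52.9% of all genes called, 25.4% higher and 27.5% lower). The higher ones were Aurkb, Ccnb2, Aurka and Plk1 among the 7 mitotic cyclins and kinases, and Ccnd2. The lower ones included 7 of 10 replication genes (median -0.53), 4 of 6 spindle genes and the 3 chromatin genes (median -0.88), while the 4 checkpoint and APC/C genes had changes of 0.05 to 0.24 that were not called.

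Ccnd1 stood at 16.4 and 17.1 CPM at P6w, and Cdkn1b at 55.2 and 54.5 CPM, and Ccnd3 at 76.8 and 61.3 CPM. For each gene the P6w values lay below every fetal library. Ccnd1 fell by 3.08 ± 0.13 (adjusted p = 6.36e-11, edgeR) against E12.5, Ccnd3 fell by 1.88 ± 0.16 and Cdkn1b fell by 1.69 ± 0.12 (adjusted p = 2.24e-08, edgeR). Ccnd2 was at 1065 and 990 CPM, above E12.5 (0.51 ± 0.11, adjusted p = 1.47e-03, edgeR), and Cdkn1a had a change of 0.29 that was not called. Aurkb, the kinase of the chromosomal passenger complex, stood at 106 and 101 CPM against 53 and 61.6 CPM at E12.5 (0.85 ± 0.13, adjusted p = 6.30e-05, edgeR), and Ccnb2 at 194 and 196 CPM against 135 and 120 CPM (0.61 ± 0.12, adjusted p = 3.88e-04, edgeR). Mcm4 fell by 1.37, with 38.6 and 38.5 CPM against 102 and 97.1 CPM. E12.5 and P6w were on different lanes: with the lane as a term 4 genes rose and 9 fell (31.7% of the 41, against 35.7% of all genes). Only E16.5 had libraries on both lanes, so the lane term was estimated from the difference between its replicates, which differed most. It cannot separate the lane from the spread between those replicates. Ccnd1 (-3.19), Ccnd3 (-2.40), Cdkn1b (-1.93), Aurkb (0.81), Ccnb2 (0.75) and Ccnd2 (0.33) were called with this term. Of the falls by role only 3 of 10 replication genes (Mcm4, Cdt1 and Gins2), 2 of 6 spindle genes (Cenpe and Birc5) and 1 of 3 chromatin genes (Hmgb2) were called with it, and Mki67 (-0.03) and Top2a (-0.02) were not. The rises of Aurka and Plk1 were not called with the lane term either. The median of the mitotic cyclins and kinases was 0.16 with the lane term, against 0.45 without it. Without E12.5 replicate 1 a total of 17 genes were called. The log2 changes of the 41 genes also ordered with exon length (rho -0.367, against -0.064 over all genes).

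From E16.5 to P6w, 12 of the 41 genes rose and 10 fell (56.1% of all genes called, 26.3% higher and 29.8% lower), and the changes had a rho of -0.305 with exon length, against -0.00827 over all genes. Mitotic cyclins and kinases rose in 6 of 7 cases with a median of 1.03, and Plk1 went from 26.9 and 33.1 CPM to 89.2 and 75 CPM (1.46) and Aurkb from 38 and 39.1 CPM to 106 and 101 CPM (1.43). The exception was Ccna2, cyclin A of S and G2 phase, which fell by 0.68. Cdkn1b fell by 3.42 ± 0.13 (adjusted p = 1.54e-11, edgeR), Ccnd3 fell by 3.15 ± 0.17 and Ccnd1 fell by 2.28. For Cdkn1a the change of -0.47 (adjusted p = 0.0239, edgeR) was not called without E16.5 replicate 2 (-0.14), without P6w replicate 1 (-0.41) or without P6w replicate 2 (-0.55).

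Of the 128 other cell cycle genes 126 were tested in the stages, each stage against E12.5. At E13.5 18 rose and 46 fell (50.8% called, against 45.9% of all genes). At E16.5 16 rose and 55 fell (56.3%, against 37.6%). At P6w 20 rose and 32 fell (41.3%, against 52.9%), a share below that of all genes.

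The V580 days were compared with E12.5_GC to ask how close the cycle genes of the induced cells came to those of the E12.5 gonad. Genes of mitosis were higher than in E12.5_GC on each day, most at V580_D4, and came down towards the gonadal level by V580_D8. Cdkn1a was high and Cdkn1b low on every day. At V580_D4 33 of the 41 genes were higher and 3 lower (71.6% of all 11512 genes called, 37.2% higher and 34.3% lower), with a median of 1.12 on the log2(FPKM + 1) scale. The counts were 32 higher and 2 lower at V580_D6 (67.0% called, 35.0% higher and 32.0% lower, median 0.83), 25 and 9 at V580_D8 (63.2%, 32.6% and 30.5%, median 0.35) and 24 and 9 at V580_D10 (69.5%, 36.3% and 33.2%, median 0.36). The 4 comparisons share the E12.5_GC libraries.

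The number of genes at least 2-fold higher on this scale went from 22 at V580_D4 (9.13% of all genes) and 16 at V580_D6 (7.06%) to 1 at V580_D8 (6.9%) and 1 at V580_D10 (9.16%), and on the latter days that gene was Cdkn1a. By role, the 7 mitotic cyclins and kinases were higher on all 4 days, with medians of 1.44, 0.95, 0.52 and 0.45. The replication genes crossed over: 8 of 10 were higher at V580_D4 and 7 of 10 lower at V580_D10, with medians of 0.43, 0.27, -0.24 and -0.35 over the 4 days.

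**Figure D3:**
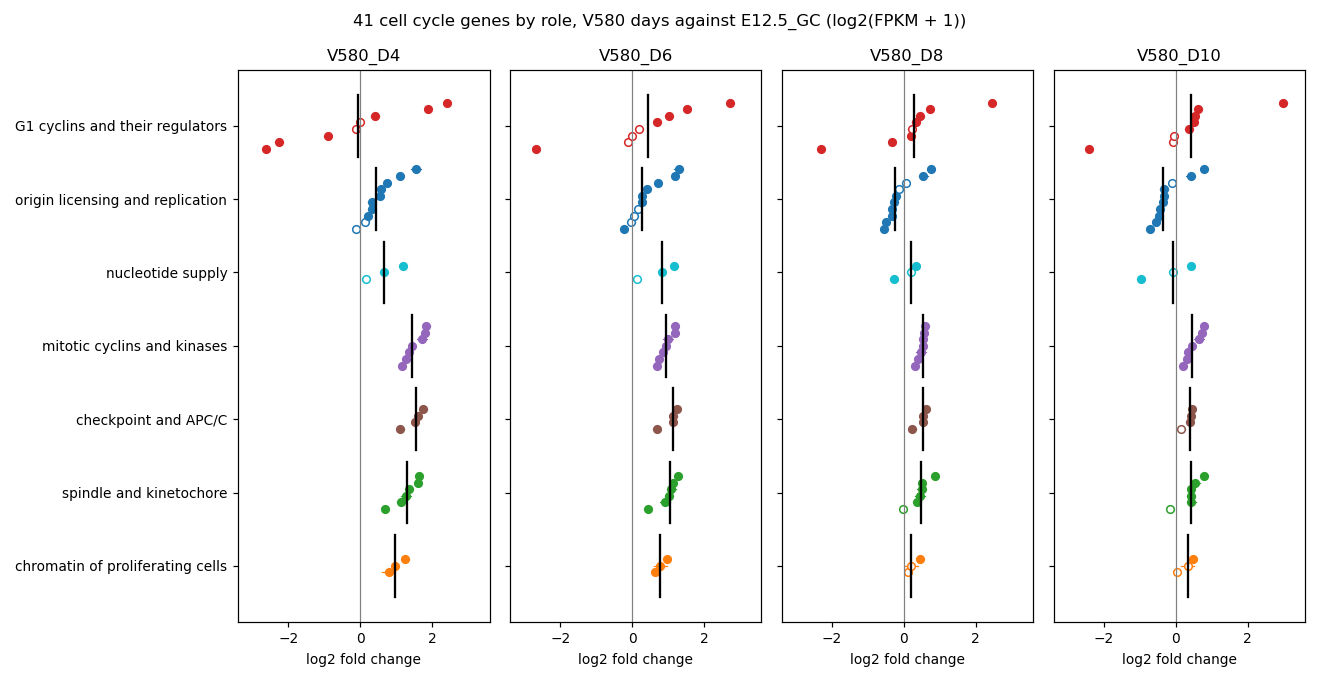
Difference of each of the 41 genes from E12.5_GC on the log2(FPKM + 1) scale, with 1 panel per V580 day and 1 row per role. Points are genes, filled where called at an adjusted p below 0.05 (limma), horizontal bars are ± SE and black bars the median of a role; mitotic, checkpoint and spindle genes move towards 0 from V580_D4 to V580_D10, and Cdkn1a (far right) and Cdkn1b (far left) stay apart.

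Cdc20 stood at 49.5, 48.6 and 37.6 FPKM in E12.5_GC, at 161, 163 and 140 FPKM at V580_D4, at 103, 101 and 98.9 FPKM at V580_D6, at 73.5, 67 and 65.8 FPKM at V580_D8 and at 60.4, 55.6 and 61.9 FPKM at V580_D10. Plk1 stood at 25.3, 21.9 and 18.4 FPKM in E12.5_GC and at 82.5, 84.3 and 74.5 FPKM at V580_D4, and by V580_D10 at 30.9, 28.6 and 30.8 FPKM. The values of both genes stepped down by day, and those of V580_D10 lay above E12.5_GC without overlap. At V580_D4 Plk1 was higher by 1.84 and Cdc20 by 1.76, and Ccne1, cyclin E of the G1 to S transition, by 1.90 ± 0.08 (adjusted p = 2.31e-11, limma). Ccne1 went from 34.7, 32 and 32.8 FPKM at V580_D4 to 11.7 to 12.7 FPKM at V580_D10, where E12.5_GC had 9.27, 8.47 and 6.93 FPKM.

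The CDK inhibitors showed opposite levels in induced cells and E12.5_GC. Cdkn1a stood at 11.4, 8.77 and 8.21 FPKM in E12.5_GC, at 55.6, 51.5 and 55.9 FPKM at V580_D4, at 70.6, 64.4 and 69.1 FPKM at V580_D6, at 56.5, 54.8 and 55.9 FPKM at V580_D8 and at 85.9, 76.3 and 83.1 FPKM at V580_D10. Cdkn1b stood at 72.6, 66.3 and 82.3 FPKM in E12.5_GC and at 10.4 to 14.7 FPKM in the 12 libraries of the V580 days. No V580 library came near the E12.5_GC range for either gene. The E12.5 GSC libraries of the stages lay closer together in this pair, with means of 177 CPM for Cdkn1b and 120 CPM for Cdkn1a. CPM are not scaled to gene length (summed exons of 4552 and 3553 bases). The contrast with induced cells thus rests on E12.5_GC, and why these sets of E12.5 libraries differed was not tested. Cdkn1a was higher by 2.42 ± 0.09 at V580_D4 (5.34-fold, adjusted p = 5.52e-12, limma) and by 3.00 ± 0.09 at V580_D10 (7.98-fold, adjusted p = 7.06e-13, limma), and Cdkn1b differed by -2.62 ± 0.07 at V580_D4 (adjusted p = 2.63e-13, limma). Its differences at V580_D6, V580_D8 and V580_D10 were -2.68, -2.30 and -2.40.

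At V580_D4 the D-type cyclins were below E12.5_GC or level with it, and on later days they reached or passed the gonadal range. Earlier, under V580 at 48 h, Ccnd1 and Ccnd3 had higher means of 23.0 and 20.8 FPKM. Ccnd2 stood at 29.4, 19.7 and 28.8 FPKM in E12.5_GC, at 4.67, 4.28 and 4.66 FPKM at V580_D4, at 30.4, 28.9 and 28.8 FPKM at V580_D6, at 39.1, 33.4 and 33.3 FPKM at V580_D8 and at 41, 37.7 and 40.1 FPKM at V580_D10. Among these groups Ccnd2 was thus lowest at V580_D4 and above every E12.5_GC library from V580_D8. Its difference from E12.5_GC was -2.26 ± 0.12 at V580_D4, 0.19 at V580_D6 (not called), 0.44 at V580_D8 and 0.61 at V580_D10. Ccnd1 stood at 13.8, 10.3 and 10.6 FPKM in E12.5_GC, at 5.51 to 5.73 FPKM at V580_D4 and at 18.6 to 19.9 FPKM at V580_D6, with differences of -0.91 ± 0.10 and 0.71, and at V580_D10 its difference of -0.08 was not called. Ccnd3 was close to E12.5_GC (mean 18.6 FPKM ± 1.84, SD, n = 3) at V580_D4 (18, 16.4 and 17.1 FPKM) and higher by 0.50 at V580_D10. Its difference of 0.19 at V580_D8 (adjusted p = 0.0473, limma) was not called without E12.5_GC replicate 3 (0.11) or without V580_D8 replicate 1 (0.14), 2 (0.21) or 3 (0.22).

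Several genes of DNA synthesis ended below the gonadal level. Mcm6, a helicase subunit, stood at 67.1, 71.3 and 57.1 FPKM in E12.5_GC, at 58.9 to 59.6 FPKM at V580_D4 and at 39, 36.7 and 42.1 FPKM at V580_D10. Tyms, thymidylate synthase, stood at 9.62, 9.7 and 6.92 FPKM in E12.5_GC, at 9.51 to 9.93 FPKM at V580_D4 and at 3.81, 4.04 and 3.85 FPKM at V580_D10. For both genes the V580_D10 libraries lay below all E12.5_GC libraries, with a difference of -0.98 ± 0.09 for Tyms and -0.71 for Mcm6. At V580_D6 the difference of Mcm6 (-0.21, adjusted p = 0.0275, limma) was not called without E12.5_GC replicate 1 (-0.19) or 2 (-0.14) or without any one of the V580_D6 libraries (-0.20 to -0.22). The direction was not shared by all replication genes, since Cdt1 (0.78) and Cdc6 (0.41) were higher at V580_D10.

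E12.5_GC held blood RNA, with a summed level of 1038 to 4435 FPKM over the 3 erythroid genes in the table, against at most 0.739 FPKM on the V580 days. Gonadal somatic markers summed to 635 to 688 FPKM in E12.5_GC and to 33.5 to 35.5, 87.4 to 94.2, 136 to 140 and 128 to 131 FPKM at V580_D4, V580_D6, V580_D8 and V580_D10. Pluripotency markers summed to 210 to 236 FPKM at V580_D4 and 39.3 to 46.8 FPKM at V580_D6, and interstitial markers to 66.9 to 78.0 FPKM at V580_D4 and 1297 to 1606 FPKM at V580_D10. Mki67 stood at 8.88 FPKM in E12.5_GC replicate 2, against 16.4 and 19.5 FPKM in the others. Their part in these differences was not tested. Of 126 other cell cycle genes tested, 100 were higher and 11 lower than in E12.5_GC at V580_D4 (88.1% called, against 71.6% of all genes). The counts were 90 and 9 at V580_D6 (78.6%, against 67.0%), 50 and 24 at V580_D8 (58.7%, against 63.2%), and 57 and 28 at V580_D10 (67.5%, against 69.5%).

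Within the course of V580, the cycle genes fell in 2 steps and then levelled. From V580_D4 to V580_D6 4 genes rose and 21 fell (44.9% of all genes called, 21.9% higher and 23.0% lower). From V580_D6 to V580_D8 1 gene rose and 37 fell (41.1% called, 20.3% higher and 20.9% lower), with a median of -0.51. From V580_D8 to V580_D10 5 rose and 5 fell (34.5% called, 19.5% higher and 15.0% lower). Over the whole course, from V580_D4 to V580_D10, 5 genes rose, all of the G1 group, and 34 fell (64.5% called, 31.3% higher and 33.1% lower), which included all 33 genes of the other 6 roles.

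In the first step the mitotic cyclins and kinases fell in 7 of 7 cases (median -0.53), with Aurka at -0.70 and Plk1 at -0.65, and the checkpoint genes in 4 of 4. Ccnd2 rose by 2.45 ± 0.12 and Ccnd1 by 1.62 ± 0.10. In the second step the S phase genes fell too: Rrm2, the inducible subunit of ribonucleotide reductase, went from 69, 71 and 68.9 FPKM to 33.7, 35 and 35.8 FPKM, a change of -0.98 ± 0.10, and Ccne1 fell by 0.81. At V580_D4 Rrm2 stood at 70.5, 68.9 and 70.2 FPKM, so that the V580_D4 and V580_D6 libraries overlapped. The single rise was that of Cdkn1b, from 10.4, 10.8 and 10.7 FPKM to 13.1, 14.7 and 14.5 FPKM (0.38 ± 0.07). Replication genes fell in 9 of 10 cases in this step (median -0.56), against 3 of 10 in the first.

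In the last step Tyms fell by 0.70 and Mcm7 fell by 0.40, from 49.5, 48.6 and 48.5 FPKM to 37.2, 36.1 and 36.7 FPKM, while Cdkn1a rose by 0.54 and Ccnd3 by 0.31. The count of this step depended on single libraries: 6 genes were called without V580_D8 replicate 1, 5 without V580_D8 replicate 3, 6 without V580_D10 replicate 2 and 5 without V580_D10 replicate 3, and the fall of Ccnd1 (-0.29) was not called without any one of these 4 (-0.22 to -0.32). The fall of Cdkn1a in the second step (-0.28) likewise was not called without V580_D6 replicate 1 (-0.25) or 3 (-0.27) or without V580_D8 replicate 2 (-0.27) or 3 (-0.28). From V580_D4 to V580_D10 the largest fall was that of Ccnb1, cyclin B, from 68.9, 68.3 and 70.1 FPKM to 26, 23.9 and 24.8 FPKM (-1.44 ± 0.06, adjusted p = 3.90e-11, limma). The largest rise was that of Ccnd2 (2.87 ± 0.12, 7.33-fold). Cdkn1b rose by 0.21, a call lost without V580_D4 replicate 1 (0.19) or without V580_D10 replicate 1 (0.18) or 2 (0.21).

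**Figure D4:**
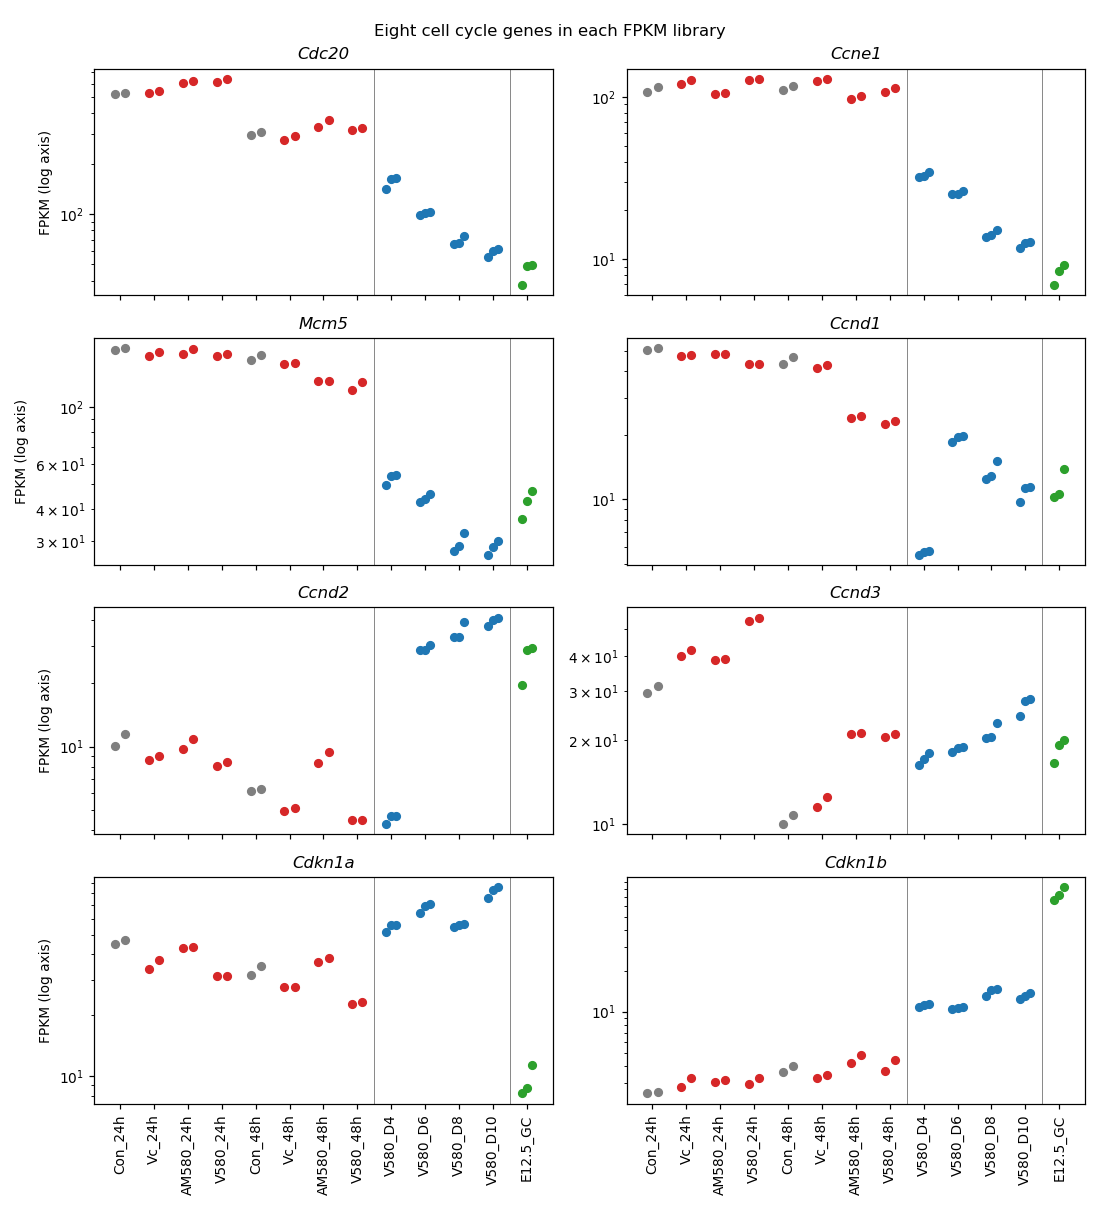
FPKM (log axis) of 8 of the 41 genes in each library of the treatments at 24 h and 48 h, the V580 days and E12.5_GC (x axis). Grey points are Con, red points the other treatments, blue points the V580 days and green points E12.5_GC; Cdc20, Ccne1 and Mcm5 are highest in the treatments, Cdkn1b is highest in E12.5_GC, and Ccnd2 steps up from V580_D4 to V580_D6.

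The treatments at 24 h and 48 h asked which early changes came with each molecule. The median of the mean levels of the 41 genes was 52.0 FPKM in untreated cells at 24 h, 42.3 FPKM at V580_D4, 23.1 FPKM at V580_D10 and 18.6 FPKM in E12.5_GC. The FPKM summed over all genes also differed, with 308500 to 319893 in Con_24h, 234409 to 243091 at V580_D4, 235548 to 254651 at V580_D10 and 215893 to 266293 in E12.5_GC. With every library scaled to a summed FPKM of 1000000, the medians were 166, 177, 93.0 and 76.7, so that untreated cells were not above V580_D4 on this scale. In untreated cells at 24 h Cdc20 was the highest of the 41 genes (525 FPKM) and Cdkn1b the lowest (2.54 FPKM). Changes under a treatment ran from -0.94 to 0.96 on the log2(FPKM + 1) scale, below 2-fold on that scale. The ends of that range were Ccnd1, which fell, and Ccnd3, which rose, both at 48 h. As a ratio of mean FPKM with no pseudocount, Ccnd3 at 48 h was at 2.03 under AM580 and 2.00 under V580, and Ccnd1 at 0.542 and 0.511.

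AM580 alone changed 3 of the 41 genes at 24 h, with 2 higher and 1 lower (14.8% of all 10644 genes called, 7.69% higher and 7.16% lower). At 48 h it changed 23, with 11 higher and 12 lower (57.0% called, 25.7% higher and 31.2% lower). V580 changed 15 at 24 h, with 4 higher and 11 lower (29.0% called, 15.5% lower and 1439 genes higher), and 26 at 48 h, with 8 higher and 18 lower (57.1% called, 25.9% higher and 31.2% lower). Among the 41 genes these counts were shares of 7.32%, 56.1%, 36.6% and 63.4%. Under V580 at 48 h the lower genes included 5 of 7 mitotic cyclins and kinases and 5 of 10 replication genes. Among 125 other cell cycle genes 24 rose and 51 fell in that comparison (60% called, against 57.1% of all genes).

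Ccnd3 stood at 29.5 and 31.1 FPKM in Con_24h, 38.9 and 38.6 FPKM in AM580_24h and 54.7 and 53.1 FPKM in V580_24h, and at 10 and 10.8 FPKM in Con_48h, 21.2 and 21 FPKM in AM580_48h and 21.1 and 20.6 FPKM in V580_48h. All treated libraries lay above the control libraries of their time. At 24 h it rose by 0.34 ± 0.05 under AM580 (adjusted p = 1.44e-04, limma) and by 0.81 ± 0.05 under V580 (adjusted p = 1.45e-08, limma). At 48 h it rose by 0.96 ± 0.05 (adjusted p = 4.62e-10, limma) and by 0.94 ± 0.05 (adjusted p = 5.70e-10, limma), and under Vc alone at 24 h by 0.42 (adjusted p = 7.00e-05, limma).

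Ccnd1 stood at 51.2 and 50.1 FPKM in Con_24h and at 48 and 48.2 FPKM in AM580_24h, and at 43.5 and 46.6 FPKM in Con_48h, 24.2 and 24.5 FPKM in AM580_48h and 23.4 and 22.6 FPKM in V580_48h. The AM580 and V580 libraries of 48 h thus lay well below all the others. At 48 h Ccnd1 fell by 0.86 ± 0.04 under AM580 (adjusted p = 1.89e-10, limma) and changed by -0.94 ± 0.04 under V580 (adjusted p = 6.63e-11, limma). Under V580 at 24 h it fell by 0.23.

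Cdkn1a and Ccnd2 separated V580 from AM580. Cdkn1a stood at 45.1 and 47.1 FPKM in Con_24h, 43.4 and 42.9 FPKM in AM580_24h and 31.3 and 31.4 FPKM in V580_24h, and at 31.7 and 35.1 FPKM in Con_48h, 38.3 and 36.6 FPKM in AM580_48h and 23.3 and 22.7 FPKM in V580_48h. It was lowest in V580 at each time. It changed under V580 by -0.54 ± 0.05 at 24 h (adjusted p = 2.51e-06, limma) and it changed by -0.52 at 48 h (adjusted p = 1.32e-06, limma), and under Vc alone by -0.36 at 24 h (adjusted p = 4.77e-04, limma). The rise of 0.16 under AM580 at 48 h was not called without Con_48h replicate 1 (0.09) or without AM580_48h replicate 1 (0.13). Ccnd2 stood at 6.12 and 6.28 FPKM in Con_48h, 9.38 and 8.37 FPKM in AM580_48h and 4.45 FPKM in both libraries of V580_48h, a rise of 0.45 under AM580 (adjusted p = 5.19e-05, limma) and a change of -0.40 under V580 (adjusted p = 1.54e-04, limma).

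Set against AM580 directly, V580 had 3 genes higher and 6 lower at 24 h (14.8% of all genes called, 7.44% higher and 7.31% lower) and 1 higher and 10 lower at 48 h (19.2% called, 8.51% higher and 10.7% lower). At 48 h the difference was -0.86 ± 0.07 for Ccnd2 (adjusted p = 8.49e-07, limma) and -0.68 ± 0.05 for Cdkn1a (adjusted p = 7.55e-07, limma). For Ccnd3 the difference was 0.47 ± 0.05 at 24 h (adjusted p = 2.22e-05, limma) and -0.02 at 48 h (adjusted p = 0.833, limma), and for Ccnd1 it was -0.08 at 48 h (adjusted p = 0.170, limma). Ccne1, at 105 and 106 FPKM in AM580_24h and 129 and 127 FPKM in V580_24h, was higher in V580 by 0.28 at 24 h. At 24 h the differences of Ccnd1 (-0.15) and Ccnd2 (-0.29) were not called without AM580_24h replicate 1 (-0.16 and -0.22) or without V580_24h replicate 2 (-0.16 and -0.26), and that of Ccnd1 also not without AM580_24h replicate 2 (-0.15) or V580_24h replicate 1 (-0.15). At 48 h that of Ccne1 (0.15) was not called without AM580_48h replicate 1 (0.12) or 2 (0.18) or without V580_48h replicate 2 (0.11).

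Vc alone changed 11 genes at 24 h, with 3 higher and 8 lower (13.6% of all genes called, 7.57% higher and 5.98% lower), and 10 at 48 h, with 5 higher and 5 lower (12.4% called, 6.37% higher and 6.07% lower). The split moved when each library was centred on its median, to 1 higher and 9 lower at 24 h and to 3 higher and 11 lower at 48 h. At 24 h Ccnd2 fell by 0.26 and Gins2 rose by 0.18 (adjusted p = 0.0499, limma). Without Con_24h replicate 1 these were -0.18 and 0.16, without Vc_24h replicate 1 they were -0.24 and 0.10, and without Con_24h replicate 2 Gins2 was at 0.21, none of which was called. At 48 h Ccnd2 (-0.26) was not called without any one of the 4 libraries (-0.24 to -0.28), nor Cdc6 (0.17, without them 0.14 to 0.21), nor Cdkn1a (-0.26) without Con_48h replicate 2 (-0.19), nor Ccnd3 (0.20) without Con_48h replicate 1 (0.15) or Vc_48h replicate 2 (0.14).

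Untreated cells also changed between 24 h and 48 h, with 13 of the 41 genes higher and 13 lower (66.0% of all genes called, 32.4% higher and 33.6% lower), or 19 higher and 11 lower with libraries centred on their medians. Ccnd3 fell by 1.46 ± 0.05 from 29.5 and 31.1 FPKM to 10 and 10.8 FPKM, and Cdc20 fell by 0.80 from 519 and 530 FPKM to 294 and 309 FPKM. Ccne2, the second E-type cyclin, rose by 0.73 from 3.64 and 3.98 FPKM to 7.14 and 6.84 FPKM, and Rrm2 rose by 0.58 from 104 and 109 FPKM to 155 and 165 FPKM. For these 4 genes the libraries of 24 h and 48 h did not overlap. Macrophage markers summed to 42.9 to 44.4 FPKM in Con_24h and 8.29 to 8.41 FPKM in Con_48h, interstitial markers to 90.3 to 99.9 and 23.5 to 24.5 FPKM, and pluripotency markers to 3134 to 3383 and 1873 to 1918 FPKM, against 2666 to 2826 FPKM in AM580_48h and 2141 to 2236 FPKM in V580_48h. Their part in the changes of the cycle genes was not tested.

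The 10x sample of V580_D6 held 15412 barcodes with none repeated, of which 15315 (99.4%) were kept, with a median of 9281 UMIs per cell. It is 1 sample, so no test between conditions was possible and intervals cover counting error only. The 41 genes made up 5189 CPM of all cells. They varied with the 12 clusters, which were built with the 41 genes and the other listed cell cycle genes left out, from 2980 CPM in cluster 2 (3248 cells, led by Igfbp5, Upk3b and Itm2a) to 8395 CPM in cluster 3 (1775 cells). Cluster 3 was led by Mki67, Hist1h2ap and Aspm, and histone and other cycle genes outside both lists stayed among the genes used to cluster, so its level partly repeats how it was formed. Clusters 1 and 5 were shallow, with medians of 1456 and 2021 UMIs, and mitochondrial genes led cluster 5.

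Top2a stood at 833 CPM in cluster 3 (95% Poisson interval 823 to 843) and at 97.7 CPM in cluster 2 (94.7 to 101), and Mki67 at 456 (449 to 464) and 41.3 CPM (39.4 to 43.3). Aurkb stood at 129 and 14.7 CPM. Mcm2 stood at 63.3 CPM in cluster 3, 65.4 CPM in cluster 2 and 50.9 CPM in cluster 4 (1573 cells, led by Actg2 and Col1a1). By role, the ratio of cluster 3 to cluster 2 was 2.14 to 8.80 for the 7 mitotic cyclins and kinases and 4.90 to 10.3 for the 6 spindle and kinetochore genes, against 0.968 (Mcm2) to 1.74 (Cdc6) for the 10 replication genes and 0.652 (Cdkn1a) to 1.64 (Ccne2) for the 8 G1 genes. Over all 12 clusters, the highest level was 2.00 to 3.25 times the lowest for the MCM subunits, and 14.6 times for Cdc6, 6.43 times for Gins2 and 34.6 times for Ccnd1. The lowest levels of Cdc6 (4.11 CPM) and Gins2 were those of cluster 11, which held 77 cells and 729139 UMIs of all genes. The ratios of Cdc6 and Gins2 thus rest on few UMIs, and whether they differ from those of the MCM subunits was not tested.

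Among the G1 genes, Ccnd1, Ccnd2 and Cdkn1a differed between clusters without following the mitotic genes. Others did so in part: E2f1 was highest in cluster 3 (22.3 CPM). The ratio of cluster 3 to cluster 2 was 1.64 for Ccne2, 1.56 for Cdkn1b and 1.37 for E2f1, against 0.936 for Ccne1 and 0.905 for Ccnd3. Ccnd1 stood at 292 CPM (254 to 334) in cluster 11 (77 cells, led by Nefm and Sst), against 61.0 CPM in all cells, 10.8 CPM (9.51 to 12.2) in cluster 8 (902 cells, led by Rbp4, Srgn and Pitx1) and 8.43 CPM (5.65 to 12.1) in cluster 7 (974 cells, led by Cited1 and S100g). Cdkn1a stood at 534 CPM (524 to 545) in cluster 6 (1036 cells, led by Wfdc2, Stra8 and Cldn3), against 220 CPM in all cells and 122 CPM (118 to 126) in cluster 3. Ccnd2 stood at 284 CPM (278 to 291) in cluster 4 and at 33.4 CPM (29.1 to 38.1) in cluster 9 (659 cells, led by Rhox9 and Sct). The cluster highest in Cdkn1a, the one highest in Ccnd1 and the mitotic cluster were thus different ones.

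**Figure D5:**
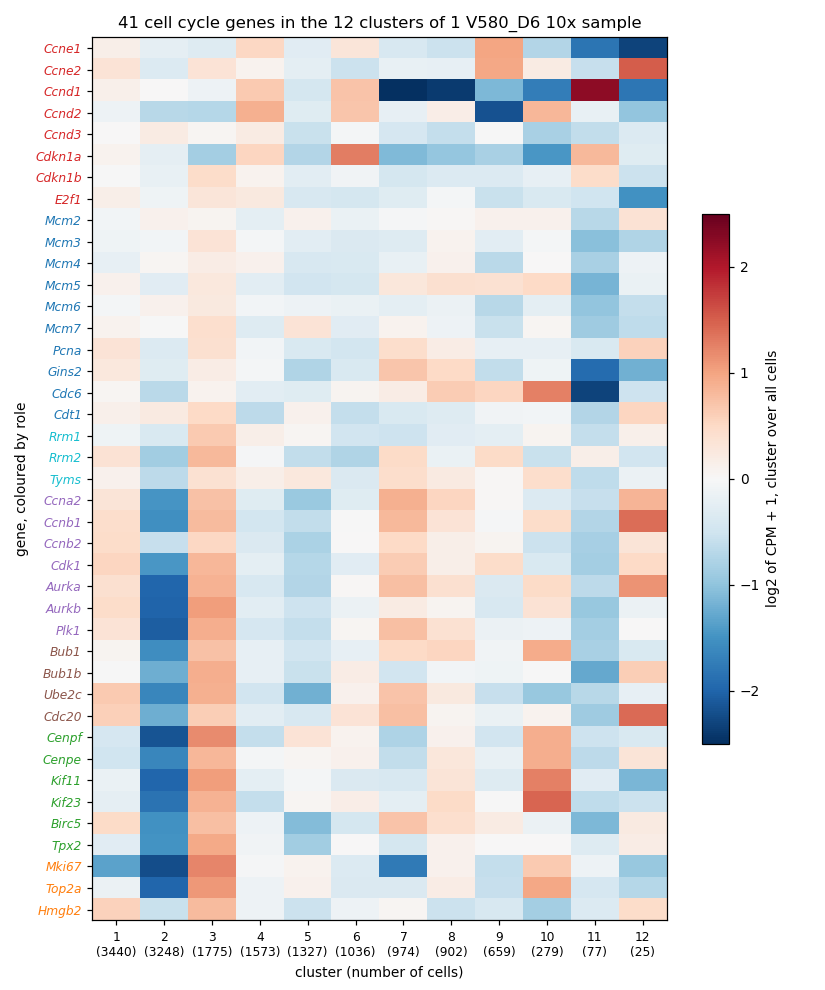
Level of the 41 genes (rows, coloured by role) in each of the 12 clusters of the V580_D6 10x sample (columns, with their number of cells), as log2 of CPM + 1 in the cluster over that in all cells. Mitotic, checkpoint and spindle genes are mostly high in cluster 3 and low in cluster 2, MCM genes vary less than most of these, and Ccnd1, Ccnd2 and Cdkn1a are high in other clusters.

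To compare cells at 1 depth, each was thinned to 5000 UMIs, which 9077 cells reached and 6238 did not. The cells too shallow were mostly of a few clusters: 3227 of 3440 in cluster 1, 1235 of 1327 in cluster 5, 777 of 974 in cluster 7, 413 of 659 in cluster 9 and 235 of 279 in cluster 10. Values of thinned cells thus describe mainly clusters 2, 3, 4, 6 and 8. At this depth 4918 cells (54.2%) held a UMI of Top2a. Before thinning the share was 58.7% of all cells, which is a different set of cells. The share was 30.2% (exact binomial 95% interval 28.5 to 31.8) in cluster 2, 93.3% (92.0 to 94.5) in cluster 3, 50.2% in cluster 4, 45.3% in cluster 6 and 72.1% in cluster 8, and before thinning 52.2% in cluster 2 and 98.6% in cluster 3. Cluster 10 had a share of 95.5% (84.5 to 99.4), from 44 thinned cells. No cell type known to lack Top2a could be named here, so the share that free RNA gives was not measured.

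Between thinned cells with and without a Top2a UMI, the ratio of CPM was 6.96 for Mki67, 6.70 for Cenpf, 6.16 for Kif11, a motor of the spindle poles, 5.66 for Aurkb and 5.10 for Plk1. The 6 MCM subunits had ratios of 1.17 (Mcm2) to 1.55 (Mcm5), and Pcna one of 1.59. Ccne1 (1.10) and Cdkn1b (1.22) had ratios near 1, and Ccnd3 (0.895), Ccnd2 (0.865), Ccnd1 (0.795) and Cdkn1a (0.694) were lower in the cells with Top2a, with Cdkn1a at 182 CPM against 263 CPM. The other G1 genes, Ccne2 (1.79) and E2f1 (1.62), lay above every MCM subunit, so that the G1 genes spanned 0.694 to 1.79 on both sides of the MCM subunits. The 7 mitotic cyclins and kinases lay higher, from 2.07 (Ccnb2) to 5.66 (Aurkb), and the 6 spindle and kinetochore genes from 3.49 to 6.70.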

How the data were processed

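The 41 genes, their roles, the list of other cell cycle genes and the tests were chosen with earlier results of these data known. The authors deposited whole-number read counts per gene symbol for the GSCs, from Hisat2 alignments to mm10 counted by featureCounts. The authors deposited FPKM for the treatments, the V580 days and E12.5_GC, without counts (the tool is not given in the sources used here). The authors deposited UMI counts of the 10x sample, made with Cell Ranger. The submitters' processing notes also name FastQC, RSEM, SAMtools and Trim Galore. A further 10 columns of values matched no sample and were not used, and the PGC libraries were not analysed here.

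Counts of 16398 genes that passed filterByExpr were TMM normalized and tested in 1 model of 8 libraries with the quasi-likelihood test of edgeR 4.0.16 in R 4.3.3. FPKM were tested as log2(FPKM + 1) with limma 3.58.1 (limma-trend), in genes with at least 1 FPKM in at least 3 libraries (days, 11512 genes) or 2 libraries (treatments, 10644 genes). Fold changes on the log2(FPKM + 1) scale understate the changes of low genes. All 41 genes passed both filters. Genes were called at a Benjamini-Hochberg adjusted p below 0.05 over all genes tested. DESeq2 1.42.0 was run as an alternative for the counts. The tests were run on simulated data first. Depth behind the FPKM is not given; from their low values the relative depths of the libraries were 0.581 to 1 of the deepest.

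The 10x cells were kept from 200 detected genes upwards and up to 40% mitochondrial UMIs and clustered in Python 3.11.15 (scanpy 1.11.5, leidenalg 0.10.2), on 2000 variable genes without the listed cycle genes, with 20 components, 20 neighbours and Leiden at 0.5. Scrublet marked 1 of 15315 cells as a doublet and so had not worked, and doublets may remain. Exon lengths came from GENCODE vM21 of GRCm38. Reads that match pseudogene copies of Ccnb1, Ccnb2, Pcna and Tyms may have been split or lost. Replicate numbers were not used to pair the libraries in the main fits.

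Full values were given to the 2 largest called rises and falls of a comparison, to called genes against the majority, and to Cdkn1a, Cdkn1b, Ccnd1, Ccnd2 and Ccnd3. Alternatives were the normalization, filter, pseudocount, tool, covariates and left-out libraries.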

Additional observations from a re-analysis of the deposited data

Results flagged for a closer look

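The difference of a treatment effect between 24 h and 48 h was tested by the interaction term of limma on the log2(FPKM + 1) scale (effect at 48 h minus effect at 24 h). For AM580 it was called in 13 of the 41 genes (31.7%), 6 in the upward and 7 in the downward direction, close to the share of all 10644 genes (35.0% called, 18.4% lower and 1760 genes higher). The terms were -0.78 for Ccnd1, -0.27 for Mcm5, -0.21 for Mcm2, -0.18 for Top2a, -0.17 for Mcm4, -0.16 for Bub1 and -0.15 for Ccna2. In the other direction they were 0.15 for Tpx2, 0.25 for Cdkn1a, 0.30 for Cdc6, 0.34 for Kif23, 0.51 for Ccnd2 and 0.61 for Ccnd3. The term of Cdkn1a was not called without Con_24h replicate 2 (0.22), AM580_24h replicate 2 (0.25), Con_48h replicate 1 (0.18) or AM580_48h replicate 1 (0.22).

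For V580 it was also called in 13 genes (31.7%), 4 upward and 9 downward (33.9% of all genes called, 15.8% higher and 18.1% lower). The terms were -0.71 for Ccnd1, -0.30 for Mcm5, -0.26 for Mcm7, -0.25 for Top2a, -0.24 for Mcm3, -0.24 for Bub1, -0.24 for Ccne1, -0.23 for Mcm2 and -0.20 for Mcm4. They were 0.17 for Rrm1, 0.23 for Hmgb2, 0.27 for Kif23 and 0.28 for Cdc6. The terms of Ccnd3 (0.13) and Cdkn1a (0.02) were not called for V580, and whether they differed from those of AM580 was not tested. Both sets of terms share the Con libraries.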

How the results depend on the processing

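Of 1907 alternative values for single genes in single comparisons, 1813 kept their direction and their side of the threshold, 71 were no longer called, 22 became called and 1 reversed: Ccnd2 at E13.5 against E12.5, which was 0.35 with a length term per library. Of 307 alternative counts and 10x ratios, 258 stayed within the limit set around the reported value. That limit was 1.5 times for counts and a narrower one for the 10x ratios. The 10x ratio was that of the highest to the lowest cluster in the summed level of the 41 genes, with the smallest clusters left out. It was 2.82 in the main setting (cluster 3 to cluster 2). At a Leiden resolution of 1.0, which gave 18 other clusters, it was 4.06. The 10x sample allows no test, and with 2 or 3 libraries per group small changes were near the threshold.

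A requirement of at least 2-fold on the scale of the fit left 5 genes at E13.5, 5 at E16.5 and then 7 at P6w (each against E12.5), 3 for E16.5 against E13.5 and 9 for P6w against E16.5. It left 17, 2 and 2 for V580_D6, V580_D8 and V580_D10 against E12.5_GC, 2 for V580_D6 against V580_D4, 0 for V580_D8 against V580_D6, 0 for V580_D10 against V580_D8 and 15 for V580_D10 against V580_D4. It left 1 for Con_48h against Con_24h and 0 for Vc, AM580 and V580 against Con, for V580 against AM580 at both times, and for the differences between times, with the fold rule as the cause. Scaled to library totals, a choice made after seeing the data, 33 genes were called at E13.5, and with a lane term 13 at P6w against E12.5. With the groups compared alone, 17 were called for V580_D10 against V580_D8 and 2 for Vc_24h against Con_24h, and without a mean-variance trend 6 for the latter. The cause was not tested, apart from fewer libraries in the fit of the groups alone.

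Leaving out 1 library at a time gave 17 to 21 called genes for P6w against E12.5, 5 to 9 for V580_D10 against V580_D8, 4 to 12 for Vc_24h (4 without Con_24h replicate 1, 5 without Vc_24h replicate 1), 3 to 4 for Vc_48h (3 without Con_48h replicate 1, Vc_48h replicate 1 or Vc_48h replicate 2, and 4 without Con_48h replicate 2) and 2 to 5 for AM580_24h (5 without Con_24h replicate 1), each against Con. For V580 against AM580 it gave 3 to 5 at 24 h (3 without AM580_24h replicate 1, 4 without AM580_24h replicate 2, 4 without V580_24h replicate 1, 5 without V580_24h replicate 2) and 6 to 10 at 48 h (6 without AM580_48h replicate 2, 6 without V580_48h replicate 1, 7 without V580_48h replicate 2). For the difference of the AM580 effect between times it gave 8 to 11 (8 without AM580_24h replicate 1). Lone libraries were assumed to vary like the other groups. The call of Cdc20 under AM580 at 24 h (0.22) was lost without AM580_24h replicate 2 (0.21).

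With the replicate number as a block, the count stayed within 1.5 times in 24 of 24 comparisons, for example 23 genes at E13.5 and 9 for V580_D10 against V580_D8, and Gins2 under Vc at 24 h and Cdc6 under Vc at 48 h were no longer called. Libraries of the same number deviated together with correlations of -0.0997 to 0.187 in the stages, -0.431 to 0.386 in the days and -0.424 to 0.209 in the treatments. The numbers were therefore not used as pairs in the main fits. With so few libraries per group these correlations cannot exclude a shared batch or culture.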

Other observations

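Cdkn2a, Cdkn2b and Cdkn1c, CDK inhibitors from the list of other cell cycle genes, differed more between the V580 days and E12.5_GC than any of the 41 genes, whereas another inhibitor of the list, Cdkn2d, differed by -0.60 at V580_D6 (6.88 against 11.4 FPKM), with libraries that overlapped. Cdkn2a, which encodes p16 and p19Arf, had means of 43.0, 55.4, 61.2 and 58.5 FPKM at V580_D4, V580_D6, V580_D8 and V580_D10, against 0.0695 FPKM in E12.5_GC, differences of 5.36 to 5.86 on the log2(FPKM + 1) scale. Cdkn2b, its neighbour p15, had means of 23.1, 26.2, 24.9 and 40.9 FPKM, against 0.722 FPKM. Cdkn1c (p57), an imprinted inhibitor, was the reverse, with 530 FPKM in E12.5_GC and 26.0 to 59.2 FPKM on the V580 days. None of the E12.5_GC libraries overlapped the V580 libraries in these 3 genes.

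Cdkn1c was also the other cell cycle gene that changed most with age in GSCs, with a mean of 502 CPM at E12.5, 267 CPM at E16.5 and 2.69 CPM at P6w (log2 change -7.54 from E12.5 to P6w, edgeR). Cdk6, a partner of the D-type cyclins, rose from 125 CPM at E13.5 to 592 CPM at E16.5 (log2 change 2.25). Rpa1, a subunit of the protein that coats single-stranded DNA, rose under AM580 at 24 h (0.56) and 48 h (0.66) and under V580 at 24 h (0.81) and 48 h (0.87) on the log2(FPKM + 1) scale.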
